A study of Mus musculus with 16 samples.

Results

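Divergent pairs of gene models were examined, that is, neighbouring models on opposite strands that are transcribed away from each other from starts at most 1000 nt apart. The models came from the transcript assembly merged over all 16 CaptureSeq libraries. A pair was kept when the outermost 5′ ends did not overlap, when both lay on a placed chromosome and when at least 1 of the models was spliced. The rule gave 2129 pairs made of 4191 gene models, out of 59106 models with a strand on placed chromosomes and 59206 in all. Of the members, 4126 took part in 1 pair, 63 in 2 pairs and 2 in 3 pairs.

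Many mammalian promoters start transcription in both directions. In a bidirectional promoter the core promoters of both genes face outward from a shared stretch of open chromatin that is often rich in CpG dinucleotides, and the opposite strand may carry a coding gene, a stable lncRNA or a short unstable upstream transcript. Pairs of coding genes that share such a promoter are well known among DNA repair, mitochondrial and ribosomal genes, whereas genes for developmental transcription factors are often flanked by a divergent lncRNA.

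RNA came from 8 tissues of adult C57BL/6J mice. Whole brain, cerebellum, cortex and olfactory bulb formed the brain group, and heart, kidney, liver and the tissue labelled Testes formed the nonbrain group. RNA capture (CaptureSeq) enriches chosen cDNAs with oligonucleotide probes before sequencing. Each tissue was captured once with a lncRNA design, which targets lncRNA loci, and once with a splice junction design, which targets annotated splice junctions, giving 16 libraries. From the splice junction design the study removed the regions most abundant in public RNA-seq of cerebellum, cortex and whole brain. The effect of this choice of probes on the comparison of brain with nonbrain tissues was not tested. Each group therefore held 4 tissues, the tissue was the unit of every test, and p-values measured the spread between tissues, with 1 library for each tissue and design. The brain tissues were extracted with TRIzol and the others with RNeasy columns from pieces of the same mouse for each organ, so tissue group and extraction cannot be told apart, and whole brain contains the 3 subregions. Brain and nonbrain libraries were also hybridized in separate pools and amplified for different numbers of cycles, which likewise cannot be told apart from the tissue group. The labels give no sex and no number of mice.

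The libraries held 8.93e+06 to 2.11e+07 fragments in the lncRNA design and 1.43e+07 to 4.39e+07 in the splice junction design. Values are normalized fragment numbers, in which 1 fragment was worth 0.289 to 4.77 depending on the library. Marker genes were highest in the expected organ for 6 of 6 neuronal, 5 of 5 kidney, 3 of 3 detected liver and 4 of 5 heart muscle genes. None of the 4 detected testis germ cell genes was highest in the library labelled Testes, in which 3 of 4 detected keratinocyte genes were highest, so this tissue is named by its label only. Its part in the results was examined by leaving it out.

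The starts of the partners lay close together. The median distance was 165 nt (quartiles 81 to 365, range 1 to 998), and 1483 pairs (69.7%) lay within 300 nt. The fullest bin was 51 to 100 nt, with 405 pairs. Near the limit of the rule, 42 pairs lay in the last 50 nt inside it, and 31 divergent pairs that are no members lay in the first 50 nt beyond it. Both models were spliced in 1236 pairs.

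**Figure D1:**
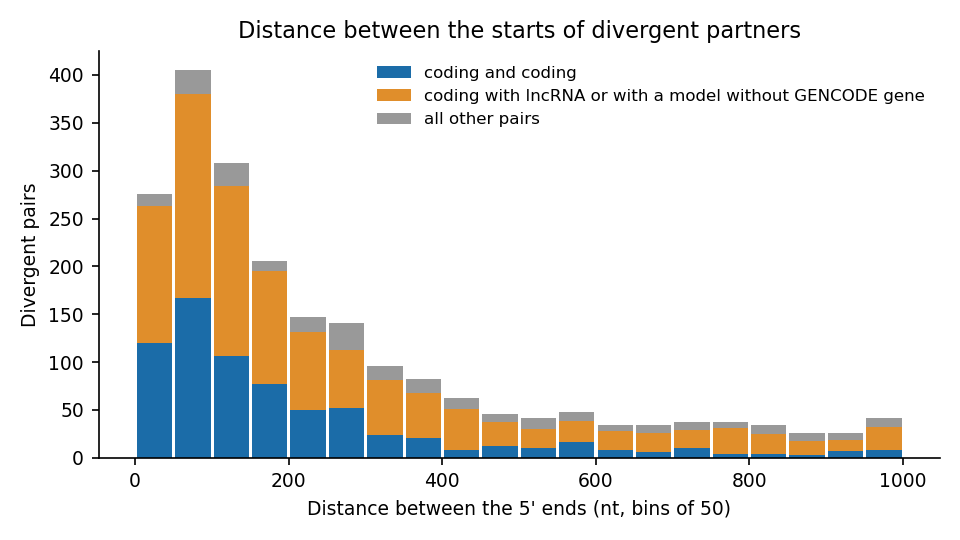
Number of divergent pairs (y axis) against the distance between both 5′ ends in bins of 50 nt (x axis), stacked by the class of the partners. Pairs are most frequent at 51 to 100 nt, with 405 pairs, and the last bin holds 42.

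The partners were assigned to GENCODE M21 genes by overlap of exons on the same strand. Coding genes faced coding genes in 714 pairs (33.5%), lncRNAs in 589 pairs (27.7%) and models that overlapped no GENCODE gene in 576 pairs (27.1%). A lncRNA faced an unannotated model in 87 pairs and another lncRNA in 43 pairs. Coding and coding pairs had a median distance of 134 nt and coding and lncRNA pairs one of 137 nt, while pairs of a coding gene and an unannotated model were wider, with a median of 220 nt. Both starts lay within 50 nt of an annotated start in 79.4% of the coding and coding pairs and in 70.6% of the coding and lncRNA pairs. The unannotated partners were mostly single exons: 598 single-exon and 95 spliced models without a GENCODE gene were members.

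A divergent neighbour was found for 13.7% of the spliced coding models (2539 of 18537) and for 10.7% of the spliced lncRNA models (617 of 5772). GENCODE itself has a gene type for lncRNAs that share a promoter with a coding gene, the bidirectional promoter lncRNA, and 65 of 143 such models (45.5%) were members. Of 42 pairs of named genes listed as candidate divergent neighbours, 11 were members. In 23 others the start of the plus model lay before that of the minus model, so they were outside the rule. This was an overlap at the starts or another arrangement of the models. Hspd1 and Hspe1, which encode the mitochondrial chaperonins, were among them, and 4 pairs lay farther apart than 1000 nt.

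Several gene families for basic cell functions held many members, described here without a test. Beside 11.99% of all coding models (2612 of 21787), members made up 28.9% of the models with an Nduf symbol (13 of 45; subunits and assembly factors of respiratory complex I), 20.99% of the mitochondrial ribosomal protein models (17 of 81) and 18.4% of the proteasome models (9 of 49). A list of DNA repair and replication genes held 18 members among 73 models (24.7%), among them Mcm4, Rfc4 and Rad54l. Histone models were members in 13 of 60 cases. Families known for expression in few cell types were at the other end, with 1 of 1111 olfactory receptors, 1 of 54 keratins (Krt14) and 5 of 93 cytochrome P450 models.

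The bases around the starts were read from the RefSeq promoter windows of build GRCm38.p6, which span 250 bases before to 50 bases after a start. A window was taken where its start lay within 50 nt of that of the spliced model, which held for 1746 of 3300 spliced members and 9326 of 24215 other spliced models. The ratio of observed to expected CpG dinucleotides had a median of 0.84 (quartiles 0.69 to 0.97) in the windows of members and of 0.54 (0.22 to 0.80) in those of the other models, and the median GC content was 62.7% against 55.7%. Coding genes showed the same order, at 0.85 for members and 0.59 for others. For lncRNAs the medians were 0.75 and 0.28, with 207 and 1040 windows. Partners closer than the window share bases, so the windows of members are not independent of each other.

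Short motifs were searched as exact letters on both strands of these windows. The GC box GGGCGG, known to be bound by Sp1, occurred in 69.0% of the member windows, 45.4% of the other windows and 49.1% of the windows of all spliced models. CCGGAAGT, the core of sites for ETS family factors, occurred in 11.97%, 4.88% and 6.00%, and GCGCATGC, the centre of NRF1 sites, in 6.76%, 3.73% and 4.21%. The TATA box letters TATAAA were less frequent in member windows, at 5.56%, than in the other windows, at 12.2%, with 11.1% over all. CCAAT occurred in 43.0%, 39.4% and 39.9%. In coding and coding pairs the CCGGAAGT share was 15.6% (836 windows), and TATAAA occurred in 3.83%.

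The stretch between both starts was read in full for 936 pairs with a gap of up to 300 nt, beside 1483 pairs within 300 nt. The shortest gaps were left out of this reading by choice, so the values do not describe them. Its median GC content was 65.5% (quartiles 58.5 to 72.3), it held 8.96 CpG per 100 bases at the median, and 81.8% of the stretches had an observed to expected CpG ratio of at least 0.6. GGGCGG occurred in 51.5% of them and CCAAT in 32.2%. Pairs whose levels correlated at 0.7 or more over the 8 tissues, as described below, were set beside pairs with a correlation below 0. The median GC content of their gaps was 66.7% (114 pairs) beside 65.8% (173 pairs) in the lncRNA design. In the splice junction design it was 67.8% (75 pairs) beside 64.3% (133 pairs). The quartiles overlapped in both designs, at 60.4 to 74.3 and 59.4 to 72.4 in the lncRNA design. The share of gaps with a CpG ratio of at least 0.6 was lower in the correlated pairs. It was 78.1% beside 88.4% in the lncRNA design and 85.3% beside 88.7% in the splice junction design. These differences were not tested.

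7 gaps are shown because they belong to pairs whose values carry the results below: partners that moved together, partners that moved apart, and starts rich and poor in CpG. Each line gives the plus strand from RefSeq, build GRCm38.p6, from the base after the start of the minus gene, whose name comes first, to the base before the start of the plus gene. These starts are those of the assembled models, and that of Yif1a lies 2815 nt from the nearest annotated start. CpG dinucleotides are in capitals.
Hadha/Hadhb (chr5:30155163-30155240): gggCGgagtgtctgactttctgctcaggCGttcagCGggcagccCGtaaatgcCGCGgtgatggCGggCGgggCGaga
Col4a4/Col4a3 (chr1:82586850-82586920): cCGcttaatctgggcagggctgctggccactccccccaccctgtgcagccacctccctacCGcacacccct
4930570G19Rik/Negr1 (chr3:156561747-156561793): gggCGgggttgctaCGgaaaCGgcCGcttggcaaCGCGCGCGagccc
Hand2os1/Hand2 (chr8:57320860-57320982): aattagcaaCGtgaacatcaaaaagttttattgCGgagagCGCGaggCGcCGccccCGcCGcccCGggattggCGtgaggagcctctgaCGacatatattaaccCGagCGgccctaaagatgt
Slc30a7/Extl2 (chr3:116007407-116007461): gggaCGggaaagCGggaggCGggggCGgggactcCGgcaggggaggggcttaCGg
Tmem151a/Yif1a (chr19:5085532-5085722): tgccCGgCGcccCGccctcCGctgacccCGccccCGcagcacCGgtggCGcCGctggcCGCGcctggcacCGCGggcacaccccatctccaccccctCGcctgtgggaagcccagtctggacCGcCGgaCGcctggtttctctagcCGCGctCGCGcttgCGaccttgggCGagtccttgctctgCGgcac
XLOC_005405/Pln (chr10:53337549-53337685): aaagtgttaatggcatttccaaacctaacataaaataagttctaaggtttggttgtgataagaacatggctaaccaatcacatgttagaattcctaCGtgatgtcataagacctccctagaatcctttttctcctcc
The Tmem151a/Yif1a gap held 24 CpG in 191 bases and the Hadha/Hadhb gap 9 in 78. GGGCGG on either strand was present in the Hadha/Hadhb, Negr1, Hand2, Slc30a7/Extl2 and Tmem151a/Yif1a gaps. The gap before Pln, the gene of the heart muscle protein phospholamban, was different in composition, with 1 CpG in 137 bases and a GC content of 36.5%. The Col4a4/Col4a3 gap held 2 CpG in 71 bases.

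How far partners rise and fall together over the tissues was described by Pearson's r over the 8 tissues on log2(value + 1), separately in each design. Pairs entered where both partners had a mean value of at least 10 in that design, which 1180 pairs did in the lncRNA design, 700 in the splice junction design and 456 in both. Members below that level in a design are not described by it: 168 members were listed at 0 in all 16 libraries. As background, each minus partner was paired with each plus partner of the same set on another chromosome, giving 1316488 and 462110 pairings. All points of an r share the 8 libraries, and no p is given.

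Partners were more alike than the pairings across chromosomes. In the lncRNA design the median r was 0.32 (quartiles −0.07 to 0.69) beside 0.02 (−0.36 to 0.41), and in the splice junction design it was 0.31 (−0.19 to 0.65) beside 0.01 (−0.43 to 0.44). An r of at least 0.7 was reached by 287 of 1180 pairs (24.3%) beside a background of 8.45% in the lncRNA design, and by 151 of 700 pairs (21.6%) beside 10.7% in the splice junction design. At the other end, an r of −0.7 or lower was found in 28 pairs (2.37%) beside 6.61% and in 34 pairs (4.86%) beside 9.96%. The spread was wide in both designs: more than 1 in 4 pairs had an r below 0.

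**Figure D2:**
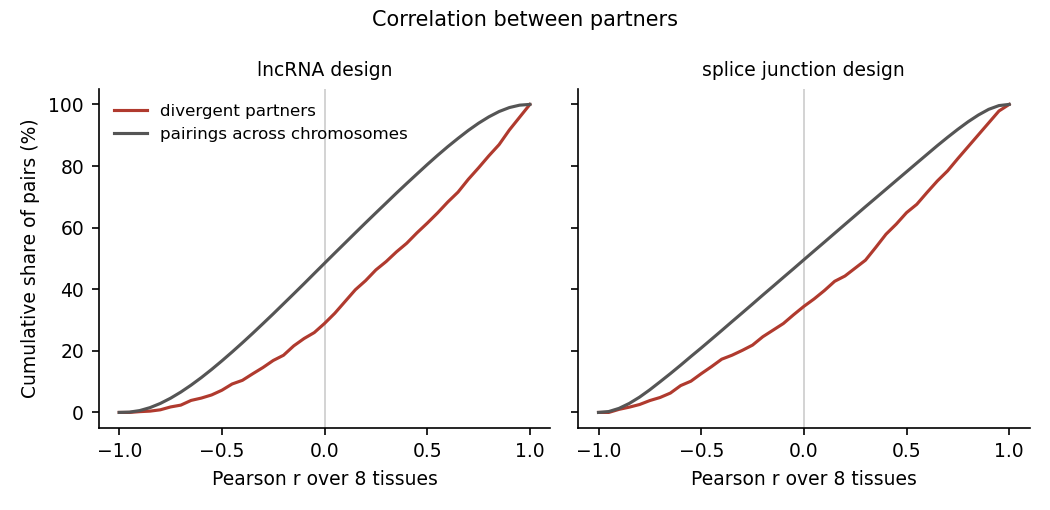
Cumulative share of pairs in percent (y axis) up to each Pearson r over the 8 tissues (x axis), for divergent partners and for pairings of members on different chromosomes, in each capture design. The curve of the partners lies to the right, with medians of 0.32 and 0.31 against 0.02 and 0.01.

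The likeness was not only that of brain against the other tissues. With the values centred within the brain and within the nonbrain group, the medians were 0.30 in each design, beside 0.03 and 0.01 for the pairings across chromosomes. Without the tissue labelled Testes they were 0.31 and 0.28. Of the scales run, the gap between partners and background was smallest with total scaling in the splice junction design. With values divided by the library's own fragment total in place of the deposited normalization, which is called total scaling, the medians in the splice junction design were 0.60 for partners and 0.46 for the pairings, and in the lncRNA design 0.40 and 0.11. Quantile normalization gave 0.51 and 0.20 in the lncRNA design and 0.31 and 0.02 in the splice junction design. The tissue of the highest value was the same for both partners in 351 of 1180 pairs (29.7%) beside 14.4% of the pairings in the lncRNA design, and in 168 of 700 (24.0%) beside 14% in the splice junction design. Liver was the shared tissue most often, in 77 and 43 pairs. It was followed by whole brain with 70 in the lncRNA design and the tissue labelled Testes with 34 in the splice junction design. No background was computed for single tissues, so these counts are a description. The study amplified its brain and liver samples for a different number of cycles before capture than the other samples. The effect of this on the counts was not tested.

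The classes differed in level. Coding and lncRNA pairs had a median r of 0.41 in the lncRNA design (345 pairs) and 0.47 in the splice junction design (99 pairs), and 32.8% and 38.4% of them reached 0.7, beside 11.3% and 15.0% of the pairings of these classes across chromosomes. Coding and coding pairs had lower medians, 0.20 (422 pairs) and 0.27 (546 pairs), with 13.3% and 18.5% at 0.7 or more beside 7.83% and 10.3%. After centring within brain and nonbrain, the coding and lncRNA medians were 0.30 and 0.44, with 19.7% and 27.3% at 0.7 or more, and the coding and coding medians 0.22 and 0.28, with 15.4% and 15.0%. Coding genes facing unannotated models had 0.32 (332 pairs) and 0.32 (43 pairs). The 44 pairs of a lncRNA with an unannotated model had a median of 0.74 in the lncRNA design. Of these, 25 (56.8%) reached 0.7, beside 9.86% of the pairings of these classes across chromosomes. The same classes paired across chromosomes had medians from 0.01 to 0.09.

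Other arrangements of neighbours gave a frame for these values. Tandem neighbours on the same strand within 1000 nt had medians of 0.54 (813 pairs) and 0.41 (825 pairs), above the divergent pairs, and convergent neighbours had 0.19 in both designs (415 and 565 pairs). Divergent models farther than 1000 nt and up to 10 kb apart had 0.32 (1316 pairs) and 0.22 (674 pairs), and those from there up to 100 kb apart had 0.10 and 0.11. Within the divergent pairs the order of the distance bins differed between the designs and with centring. The median in the lncRNA design was 0.24 up to 100 nt, 0.35 from there to 300 nt and 0.43 beyond, and after centring within brain and nonbrain the medians of these bins were 0.30, 0.30 and 0.32. In the splice junction design they were 0.27, 0.33 and 0.33, and 0.32, 0.30 and 0.28 after centring.

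**Figure D3:**
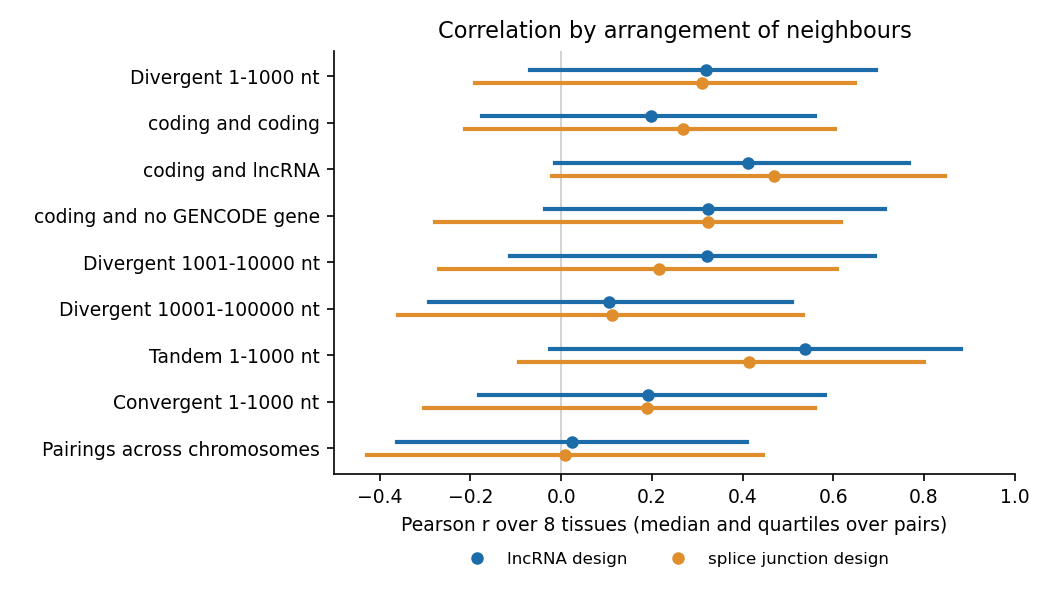
Pearson r over the 8 tissues (x axis; points are medians over pairs and bars the quartiles) for divergent pairs, their classes, other arrangements of neighbours and pairings across chromosomes (y axis), in both designs. Pairings across chromosomes lie near 0 (0.02 and 0.01) and tandem neighbours at 0.54 and 0.41, with all divergent pairs between them at 0.32 and 0.31.

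The 2 designs ranked the same pairs alike in part. Among the 456 pairs measured in both, r was above 0 in both designs for 244, below 0 in both for 91 and of different sign for 121. Across these pairs, which are not independent replicates, the 2 values of r had a Pearson correlation of 0.58. An r of at least 0.7 in both designs was found for 48 pairs and one of −0.7 or lower in both for 5 pairs. Both designs measured the same tissues. No share among the pairings across chromosomes was computed for agreement between the designs, so these counts are a description.

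The pairs named next were chosen for a high or a low r in both designs, so their values are a description. Hadha and Hadhb, which encode the subunits of the mitochondrial trifunctional protein of fatty acid oxidation, start 79 nt apart on chromosome 5 (Hadha 30118301-30155162, Hadhb 30155241-30184593). Hadha in the splice junction design had 2836, 3020, 1941 and 2489.7 in brain, cerebellum, cortex and olfactory bulb and 66114.5, 6061, 18859.8 and 16741 in heart, kidney, liver and the tissue labelled Testes. Hadhb had 525, 511, 359.6 and 431 in the brain tissues and 10208, 889.7, 1664 and 1444 in the others. Heart was highest and cortex lowest for both genes, no brain value overlapped the others, and r was 0.96 in the lncRNA and 0.97 in the splice junction design.

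Col4a4 and Col4a3, which encode collagen IV chains of the kidney filter, start 72 nt apart on chromosome 1 (82431323-82586849 and 82586921-82722059). Col4a4 in the splice junction design had 11073.8 in kidney, 857 in heart and 23.4 to 307 elsewhere. Col4a3 had 17653.5 in kidney, 788 in heart and 23.1 to 460.3 elsewhere. Kidney stood far above the other tissues for both, with r of 0.96 and 0.996.

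Pairs of a coding gene with a lncRNA reached similar values. Cntn4, a contactin of neuronal cell adhesion, and the lincRNA Gm15631 start 50 nt apart on chromosome 6 (105677660-106699310 and 105673046-105677610), with r of 0.99 in each design. Cntn4 in the splice junction design had 2937, 2282, 4393 and 2016 in the 4 brain tissues and 0 to 1.60 in the others, and Gm15631 had 119, 35.3, 182 and 53.4 and was listed at 0 in all 4 others. The order of the levels was turned in the lncRNA design, with 1600 to 8429 for Gm15631 and 55.3 to 140.3 for Cntn4 in the brain tissues. Zic2, a zinc finger transcription factor of the developing and cerebellar brain, and the noncoding 2610035F20Rik start 53 nt apart on chromosome 14. Zic2 had 202.8 in cerebellum, 44.0 in brain, 23.1 in olfactory bulb and 7.44 in cortex in the splice junction design and was listed at 0 in the nonbrain tissues, and 2610035F20Rik followed with 232, 40.8, 32.8 and 11.9.

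Other pairs ran against each other. Slc30a7, a zinc transporter of the Golgi, and Extl2, a glycosyltransferase of the exostosin family, start 56 nt apart on chromosome 3 (115938973-116007406 and 116007462-116029016), with r of −0.77 and −0.76. Slc30a7 in the lncRNA design had 2344, 2145, 1706.5 and 1824 in the brain tissues and 4417, 5008.5, 8665 and 7557 in the others. Extl2 had 160.4, 151, 95.4 and 29.0 in the brain tissues and 28.6, 8.45, 12.9 and 14.8 in the others. All 4 nonbrain values lay above the brain values for Slc30a7 and below them for Extl2. For Extl2, olfactory bulb and heart lay closer together than 4.77, the worth of 1 fragment in that heart library. In the splice junction design Slc30a7 had 1286 to 1835 in the brain tissues and 1388, 2121, 3504 and 3543 in the others, so that heart lay within the brain range, while Extl2 had 749 to 2587 and 216 to 599.9 without overlap. The limma call of Slc30a7 as lower in brain, made as described below, was lost in the splice junction design alone and without cortex or olfactory bulb. Tmem151a, a membrane protein gene, and Yif1a, which acts in transport between endoplasmic reticulum and Golgi, start 192 nt apart on chromosome 19 (5070780-5085531 and 5085723-5092879), with r of −0.75 and −0.92. Yif1a in the splice junction design had 660.5 to 1088 in the brain tissues and 3416.5 to 4608.5 in the others, while Tmem151a had 33.2 to 70.3 and 2.61 to 14.4. The model of Yif1a begins 2815 nt from the nearest annotated start.

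**Figure D4:**
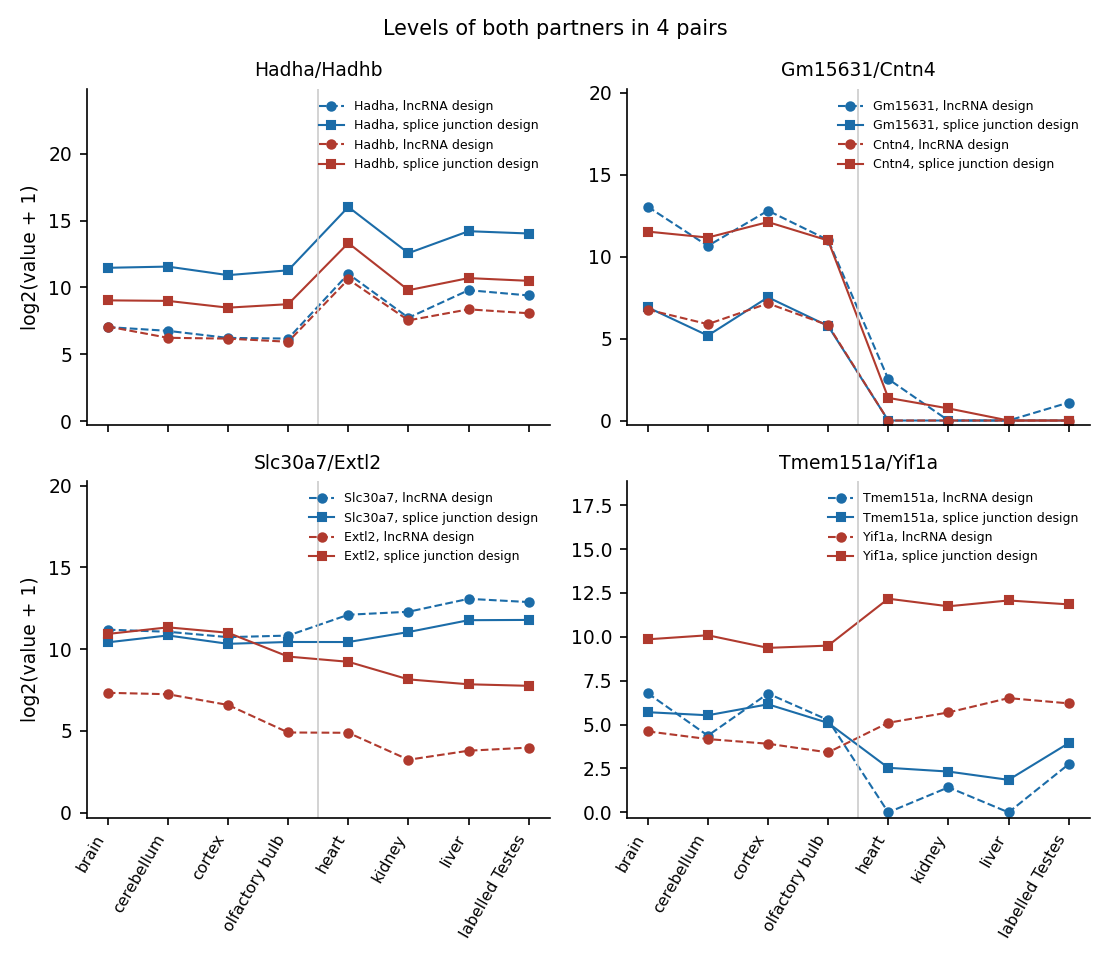
log2(value + 1) (y axis) in each of the 8 tissues (x axis; brain tissues left of the grey line) for the minus partner in blue and the plus partner in red, dashed for the lncRNA and solid for the splice junction design; lines only join the points of 1 gene. Hadha and Hadhb peak together in heart and Gm15631 and Cntn4 are high in the brain tissues alone, whereas Slc30a7 and Extl2, and Tmem151a and Yif1a, move apart.

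The remaining pairs of low r in both designs were Aimp1/Tbck (265 nt, −0.79 and −0.90), Tspan31/Agap2 (959 nt, −0.83 and −0.74) and the lncRNA Gm15535 with Gatb (163 nt, −0.73 and −0.86). Aimp1 encodes a scaffold of the tRNA synthetase complex and Gatb a subunit of the mitochondrial glutamyl-tRNA amidotransferase.

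Brain and nonbrain tissues were compared with limma on log2(value + 1), averaged over both designs, for every model whose mean value reached 10, and a model was called at an adjusted p threshold of 0.05. Fold changes on this scale depend on the pseudocount for models near 0 in a group. Of 30849 models tested, 7036 were higher in the brain tissues (22.8%) and 2593 lower (8.41%). Members passed the minimum in 3251 cases, and 515 of these were higher (15.8%) and 316 lower (9.72%). Coding members were higher in 366 of 2356 cases (15.5%) and lower in 272 (11.5%), beside 20.1% and 13.8% of all coding models, and lncRNA members were higher in 21.2% of 477 cases beside 28.2% of all lncRNA models.

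The balance of higher and lower depended on the scale. Under the deposited normalization the median log2 fold change of all models was 0.35, and 62.0% of the called members were higher in brain. With quantile normalization the median was −0.24 and 35.9% of the called members were higher (327 higher and 584 lower), and with total scaling the median was 0.64 and 80.9% were higher (709 and 167). Directions and fold changes below are those of the deposited normalization and are measured from 0, not from these medians. Fewer cells of a type and less RNA per cell cannot be told apart in such tissue samples.

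Both partners were tested in 1330 pairs, and both were called in 122. They changed in the same direction in 109 of these (89.3%), beside 52.4% of the pairings across chromosomes in which both were called. Both partners were higher in brain in 86 pairs (6.47%) beside 2.17% of the pairings, both were lower in 23 (1.73%) beside 0.871%, and the partners changed in opposite directions in 13 (0.98%) beside 2.76%. In 396 pairs only 1 partner was called. The counts were 52, 72 and 13 with quantile normalization and 114, 14 and 8 with total scaling, and 79, 18 and 17 without the tissue labelled Testes. Leaving out a tissue gave 62 to 92 pairs with both higher. Pairs with both lower fell to 10 without cerebellum, cortex or olfactory bulb and to 14 without kidney. Opposite changes numbered 4 without cortex, 7 without olfactory bulb, 8 without whole brain or cerebellum and 22 without heart. The splice junction design alone gave 33 pairs with both higher, and the lncRNA design alone gave 4 pairs with opposite changes.

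**Figure D5:**
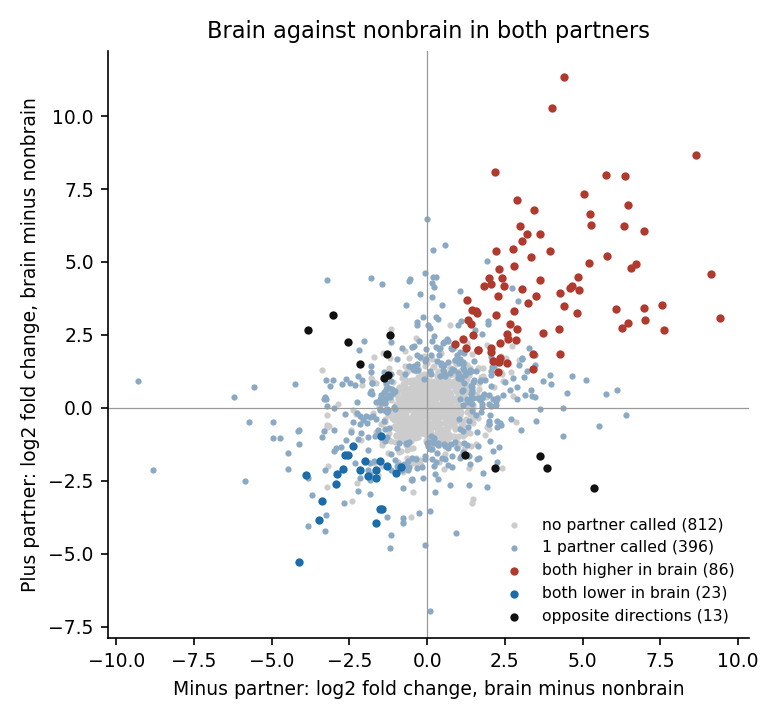
log2 fold change of brain minus nonbrain tissues of the minus partner (x axis) and of the plus partner (y axis), 1 point per pair tested. Colours mark which partners were called. The 86 pairs with both higher lie in the upper right, the 23 with both lower the lower left, and the 13 with opposite changes the remaining quadrants.

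Coding and lncRNA pairs held 44 of the 86 pairs with both partners higher, 12.3% of the 357 tested, while coding and coding pairs held 14 of 585 (2.39%). Coding genes facing unannotated models held 20 of 320 (6.25%). These shares have no background by class: of all models tested, 28.2% of the lncRNA and 20.1% of the coding models were higher in brain. Of the 13 pairs with opposite changes, 9 were coding and coding, 1.54% of the 585 tested. The other 4 were coding and lncRNA, 1.12% of the 357 tested. Over all classes, 2.76% of the pairings across chromosomes changed in opposite directions. The pairs named in the next paragraphs were chosen for the size of these changes, except Peg3/Usp29, so the fold changes describe them and are not tested anew.

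The pairs with the largest rise in both partners held neuronal adhesion genes. Negr1, a neuronal growth regulator of the immunoglobulin superfamily, and the lincRNA 4930570G19Rik start 48 nt apart on chromosome 3 (156561794-157316445 and 156546753-156561746). 4930570G19Rik in the lncRNA design had 3675, 10862, 6107.5 and 9201 in the brain tissues and 2.57 to 176.5 in the others, and Negr1 had 333, 228, 313 and 202 beside 0 to 3.38. The log2 fold changes were 6.45 ± 0.81 and 6.94 ± 0.42 (SE, n = 4 against 4 tissues; limma adjusted p = 0.000394 and 8.00e-06). Pcdh10, a protocadherin, and 5930409G06Rik, 42 nt apart, had 727 to 9254 and 919 to 8958 in the brain tissues in the lncRNA design, with cerebellum lowest for both, and at most 9.54 and 9.12 elsewhere. Cdh8, a cadherin, and the lincRNA A330008L17Rik, 171 nt apart, were listed at 0 in all nonbrain libraries and ranged from 13.4 to 289.6 and from 1.62 to 2053 in the brain ones. Cntnap5a, of the contactin-associated family, had 17414 in brain and 14467.5 in cortex but also 1653 in kidney, where its partner Gm17916 was listed at 0.

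Peg3 and Usp29, neighbouring imprinted genes expressed from the paternal copy, were a pair chosen for its r of 0.99 and 0.95. They start 662 nt apart, and their log2 fold changes were 4.02 ± 0.49 and 10.28 ± 0.58 (limma adjusted p = 0.00036 and 5.79e-06). Usp29 had 6727 to 33375 in the brain tissues of the lncRNA design and at most 13.7 elsewhere.

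The 5 pairs with the largest fall were BC049987/Treh, Lsr/Fam187b, Ly75/Gm13580, Tmem30b/2210039B01Rik and Tns1/Rufy4. Treh, the trehalase of the kidney brush border, had 7292 in kidney, 144.4 to 311 in heart, liver and the tissue labelled Testes and 0 to 5.67 in the brain tissues in the splice junction design. Its neighbour BC049987, a lincRNA 957 nt away, had 7955.5 in kidney and 2.63 to 105 in the brain tissues in the lncRNA design. Lsr, the lipolysis stimulated lipoprotein receptor, was highest in liver, with 53146 in the lncRNA design against 1041 to 2199 in the brain tissues, and fell by 2.93 on the log2 scale (SE 0.85, limma adjusted p = 0.0282). Its partner Fam187b, 340 nt away, fell by 2.63 (SE 0.69, limma adjusted p = 0.0179) at values of at most 75.5. For Lsr the call was lost when any 1 of the brain tissues or kidney was left out, with 3 of 8 such fits called. Ly75, an endocytic receptor, and the antisense RNA Gm13580 were highest in the tissue labelled Testes, at 29759 and 26.1 in the splice junction design, and the calls of both were lost when any 1 of the brain tissues was left out. The model of Gm13580 begins 27277 nt from the nearest annotated start. Tmem30b (limma adjusted p = 0.0453) was called in 1 of the 8 fits that left out a tissue, and its call was also lost in the lncRNA design alone.

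Among the pairs with opposite changes, Tmem151a rose by 3.86 ± 0.60 and Yif1a fell by 2.05 (SE 0.34; limma adjusted p = 0.00136 and 0.00179). Ndc80, a kinetochore gene of dividing cells, and Spdya, an activator of cyclin-dependent kinases, start 39 nt apart. Ndc80 had 10.4 to 31.6 in the brain tissues and 46.1 to 467.6 in the others in the splice junction design, and Spdya had 30.4 to 65.6 and 0 to 6.09. In the lncRNA design the groups overlapped for both genes. Spdya had 25.7 in liver, within its brain values of 14.4 to 29.35, and Ndc80 was higher in olfactory bulb, at 19.3, than in liver. The call of Spdya was lost in the lncRNA design alone. Ndc80 was called in 4 of the 8 fits that left out a tissue. The antisense RNA Gm14703, 2 nt from Prickle3, had 45459.5 to 159236 in the brain tissues of the lncRNA design and 511.7 to 2776 elsewhere, while Prickle3, a planar cell polarity gene, had 32.6 to 75.1 and 121 to 1070 in the splice junction design. Jchain, the joining chain of antibodies, and Rufy3 start 443 nt apart in the assembly, where the Jchain model begins 19785 nt from the nearest annotated start. With total scaling the lower partner no longer passed the test in Slc30a7/Extl2, Ndc80/Spdya, Gm14703/Prickle3, Nrg4/Tmem266 and 4933427D14Rik/Txndc17, and with quantile normalization the higher partner did not in the Spdya, Tmem266 and 4933427D14Rik pairs.

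Pairs taken from the list of named genes, and those with the highest values of an unannotated partner, were not chosen by the fold changes between brain and nonbrain tissues. XLOC_057317/Pcdh11x was singled out by the study from these libraries, so its value is no independent evidence. The list itself was drawn up with earlier results of these data known. In these 19 pairs the log2 ratio of the minus to the plus partner was compared between brain and nonbrain tissues with a two-sided exact permutation test over 70 assignments. Its smallest possible p is 0.0286, which 8 pairs reached, and after adjustment over the 19 pairs that is 0.0679, so none passed. Son, a splicing cofactor, and Gart, of purine synthesis, 554 nt apart, had a ratio of Gart to Son lower in brain by 1.67 on the log2 scale (exact permutation p = 0.0286). Gart itself fell by 1.33 (SE 0.28, limma adjusted p = 0.00657), a call lost with total scaling, while Son differed by 0.35 ± 0.33 and was not called. Serpini1, which encodes the neuronal protease inhibitor neuroserpin, rose by 5.59 ± 0.73 (limma adjusted p = 0.000498), and Pdcd10, 691 nt away, differed by 0.57 ± 0.37 without passing. Mcm4 and Prkdc, of DNA replication and repair, differed by 0.16 ± 0.44 and 0.46 ± 0.33, with r of −0.48 and 0.26.

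Among the listed pairs, 3 joined a transcription factor gene to a divergent lncRNA. Hand2os1 starts 124 nt from Hand2, a heart transcription factor (8:57304265-57320859 and 57320983-57324517). Hand2os1 had 23412 in heart, 775 in liver, 25.3 in kidney and 11.4 in the tissue labelled Testes in the lncRNA design and was listed at 0 in the brain tissues. Hand2 itself was listed at 0 in 14 of the 16 libraries and at 1.60 and 0.87 in heart and liver in the splice junction design, so no correlation could be given. Pou3f3, a POU factor of brain and kidney, had 2394.5 to 9711 in the brain tissues, 5509 in kidney and 28.6 to 31.9 in the other 3 in the lncRNA design. Its neighbour Pantr1, 926 nt away, had 21.5 to 261 in the brain tissues, 31.4 in kidney and was listed at 0 in the rest in the splice junction design. The call of Pou3f3 (limma adjusted p = 0.0377) was lost when any tissue but kidney was left out. Wt1, a factor of kidney podocytes, had 341 in kidney, 303 in heart and 2.68 to 17.4 elsewhere in the splice junction design, and Wt1os, 11 nt away, had 333 in kidney, 105 in heart and at most 6.84 elsewhere in the lncRNA design.

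Unannotated partners reached high values in the lncRNA design, to which the values below belong, some of them next to well-known genes. In the splice junction design the maximum was 5.22 for XLOC_005405, 10.0 for XLOC_038987, 4.60 for XLOC_018218, 6.07 for XLOC_049756 and 4.01 for XLOC_048599. XLOC_005405, a single exon 138 nt from Pln, had 13202 in liver, 3473 in heart and 567 to 2184.5 elsewhere in the lncRNA design, whereas Pln had 1341060 in heart and at most 7049 elsewhere. Their order over the tissues was thus unlike, with r of 0.50. XLOC_038987 faced the antisense RNA Gm16054 at 438 nt, with 6943 to 16800 in the brain tissues and 51.5 to 855 in the others, and r was 0.99. XLOC_018218, with 2 exons, began 20 nt from Ndufa6, a subunit of complex I, and had 961 to 3234 in all 8 tissues. XLOC_049756, 50 nt from the Mediator subunit gene Med26, had 659 in liver and 2230.5 to 5934 elsewhere. XLOC_048599 lay 459 nt from Wee1, the kinase that restrains entry into mitosis, and was highest in heart, at 15441. XLOC_057317, a model of 4 exons 70 nt from the protocadherin gene Pcdh11x on chromosome X, had 10.5 to 95.9 in the brain tissues of the lncRNA design and was listed at 0 in all other libraries, and Pcdh11x had 22.3 to 85.6 beside at most 4.77, with r of 0.95.

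The lncRNA Neat1, the scaffold of nuclear paraspeckles, was lower in the brain tissues, at 10216 to 25355 against 257764 to 609094 in the lncRNA design, and fell by 4.13 on the log2 scale (SE 0.43, limma adjusted p = 0.000144). XLOC_025730, 298 nt from it, had 88.4 to 504 and 184.6 to 1184, the groups overlapped, and it was not called.

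Levels of partners were compared per kilobase of exon within a library. In coding and lncRNA pairs the noncoding partner was above the coding one in the lncRNA design, where the log2 ratio had a median of 1.68 over 517 pairs and tissue medians from 1.21 in liver to 2.11 in heart. In the splice junction design the ratio was −4.797 over 511 pairs, with tissue medians from −5.38 in brain to −3.87 in heart. For pairs of a coding gene and an unannotated model the medians were 0.30 (546 pairs) and −4.58 (539 pairs). The ratios therefore describe captured fragments under each probe design and are no measure of the transcripts' abundance in the cell. Over all these pairs the median ratio in the lncRNA design was 0.96, and −1.09 when it was not divided by length.

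Members were less tissue specific than other spliced models of their class. Specificity was described by tau, which is 0 for equal levels in all tissues and 1 for a single tissue, over models whose mean value reached 10. In the lncRNA design the median tau was 0.20 for 2032 coding members and 0.26 for 9529 other coding models, 0.25 for 399 lncRNA members and 0.40 for 2213 others, and 0.24 and 0.44 for 67 and 609 models without a GENCODE gene. In the splice junction design the medians were 0.16 and 0.23 for coding, 0.33 and 0.51 for lncRNA models. These are descriptions over models that passed a minimum value, without a test.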

How the data were processed

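Capture libraries of 8 mouse tissues were sequenced once in each of 2 probe designs with a stranded kit. The authors aligned reads to GRCm38 with TopHat2, assembled transcripts with Cufflinks 2.2.1 on GENCODE M4, merged all assemblies and quantified them with Cuffnorm 2.2.1; they deposited the merged gene models and, per transcript, a normalized fragment signal. These values were summed per gene model. The sums were whole multiples, within 0.1, of what 1 fragment is worth in each library. Levels per kilobase used these fragments. Models were named by same-strand exon overlap with GENCODE M21. Partners and lists were chosen with earlier results of these data known. Correlations used numpy 2.4.6 in Python 3.11.15. The brain comparison used limma 3.58.1 (R 4.3.3, trend, Benjamini-Hochberg over all models with a mean of at least 10). It was tested on simulated data first. The pairs named were those of a list of known neighbours, the 5 most extreme by correlation in both designs, by brain change in each direction, and by level of an unannotated partner; the most informative are given. Alternatives changed the pseudocount, filter, scaling (quantile, or each library by its fragment total outside the ERCC controls), design and tissues.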

Additional observations from a re-analysis of the deposited data

Results flagged for a closer look

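Among the members of the named pairs, 172 groups of 4 tissues were examined on log2(value + 1), averaged over both designs, and in 11 of them 1 tissue lay far from the other 3; chance alone gives about 1 in 20 groups. Cerebellum was low for Serpini1, at 6.72 against 7.63 to 7.75 in the other brain tissues, and low for Wt1, at 0.94 against 1.66 to 1.76, while it was the only brain tissue with a value for Wt1os, at 1.39. Kidney stood above the other nonbrain tissues for Pou3f3, at 9.03 against 2.95 to 3.13, and was the only one of them with a value for Pantr1, at 2.51. Heart was high for Extl2, at 7.06 against 5.70 to 5.87, and was the only nonbrain tissue with a value for Pcdh11x, at 1.26. The tissue labelled Testes was high for Gm13580, at 6.99 against 1.67 to 2.48, and was the only nonbrain tissue with a value for 2610035F20Rik, at 0.55. Olfactory bulb was low for Cdh8, at 4.60 against 6.81 to 7.05. Whole brain was low for Gm15535, at 6.51 against 7.28 to 7.43. Kidney thus set both partners of Pantr1/Pou3f3 apart from the other nonbrain tissues. Where the other 3 tissues were all at 0, any value was flagged, so the share of about 1 in 20 does not apply there. Of these cases, Pcdh11x in heart and 2610035F20Rik in the tissue labelled Testes rested on 1 fragment each. Wt1os in cerebellum rested on 3 fragments in the lncRNA and 1 in the splice junction design.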

How the results depend on the processing

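The median partner correlation stayed above 0 under every alternative run. It ranged from 0.31 to 0.37 in the lncRNA design and from 0.27 to 0.36 in the splice junction design when each tissue was left out. In the lncRNA design it was 0.40 with total scaling and 0.51 with quantile normalization, where the pairings across chromosomes had 0.11 and 0.20, and in the splice junction design it was 0.60 with total scaling, where they had 0.46. Pairs with both partners higher in brain (86) numbered 135 with no filter on low values, 43 at a mean of at least 50, 52 with quantile normalization and 33 in the splice junction design alone, and 62 to 92 when a tissue was left out. Pairs with both lower (23) numbered 13 at a mean of at least 50, 14 with total scaling and 72 with quantile normalization, and 10 to 31 when a tissue was left out; without cerebellum, cortex or olfactory bulb they were 10 each and without kidney 14. Pairs with opposite changes (13) numbered 8 with total scaling and 4 in the lncRNA design alone, and 4 to 22 when a tissue was left out, with 4 without cortex, 7 without olfactory bulb, 8 without whole brain or without cerebellum and 22 without heart. Members called (831) ranged from 539, without cortex, to 929, without heart. The level ratio of noncoding to coding partners was 0.96 in the lncRNA design and −1.09 without division by length, and in the splice junction design it was −4.74, −7.01 without division by length and −6.72 with a pseudocount of 0.1 fragment. The cause of these changes was not tested. No paired analysis was possible because the labels give every library the same replicate number. Models with few fragments in a library, worth up to 4.77 each, are the least certain.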
